A study of Mus musculus with 23 samples.

Results

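The genes described here are 7 markers of neural crest derived glia and of neurons, and the data are the open chromatin regions that lie nearest to them in mouse maxillary mesenchyme at 3 embryonic stages. Sox10, Foxd3 and Erbb3 mark migrating neural crest and its glial progeny, and Neurog1, Tubb3, Elavl3 and Elavl4 mark neurons and their precursors. Peaks of the 9 deposited lists that overlapped by 1 bp or more were merged into 118102 regions, and a region belonged to a gene when that gene was its nearest protein-coding gene, with a distance of 0 inside the gene body and of at most 100 kb outside it. By this rule 57 regions belonged to the 7 genes, of which 14 lay nearest Elavl4, 10 nearest Foxd3, 10 nearest Elavl3, 8 nearest Sox10, 6 nearest Erbb3, 6 nearest Neurog1 and 3 nearest Tubb3. The rule used position alone, not the stages or samples in which a region was called, but the genes were chosen with earlier results of these data known.

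The study profiled wild-type C57BL/6 mouse embryos by ATAC-seq, an assay in which a transposase inserts sequencing adapters into accessible DNA. Maxillary prominences, the paired buds that form the upper jaw, were dissected on embryonic days E10.5, E11.5 or E12.5, and their ectoderm was peeled off after dispase digestion. Each stage had 3 samples, described as biological replicates, sequenced in 23 library runs in all and reduced by the authors to 1 peak list a sample. The sources used here do not give how many embryos or litters went into a sample, so the spread between samples may be in part technical, and no group carries a treatment or a mutation.

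Glia and neurons of the face are marked by different genes. Neural crest cells that keep Sox10 and Foxd3 become the Schwann cell precursors that travel along growing nerves and depend on the neuregulin receptor Erbb3, whereas crest cells that turn into facial mesenchyme lose these genes. Sensory neurons of the trigeminal ganglion, which arise under the control of Neurog1 and then express the RNA-binding proteins Elavl3 and Elavl4 and the neuronal tubulin Tubb3, send axons into the maxillary prominence while their nuclei stay in the ganglion. A peak list of peeled mesenchyme is therefore read here as a mixture, in which fewer nuclei of a type and less open chromatin per nucleus cannot be told apart.

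The start sites of these genes are shown because they carry the clearest calls and the clearest absences. Each line gives a RefSeq promoter window on GRCm38.p6 (mm10) from 250 bp before to 50 bp after the start site, 5′ to 3′ on the gene's strand. Capitals mark matches to 3 motifs searched on both strands, the core ACAANG that SOX factors prefer, the E-box CANNTG of neurogenin-type factors and GGACAG, a part of the RE1 element of a repressor of neuronal genes. None of the marked matches overlapped another in these windows. The first line is the Elavl4 distal start (chr4:110351862-110352161, minus strand), which peaks of 4 lists overlapped, E10.5 sample 1 and the 3 E11.5 samples, and the second is an internal Elavl4 start (chr4:110287478-110287777, minus strand), which no list called. The next is Tubb3 (chr8:123411303-123411602, plus strand), then Foxd3 (chr4:99656049-99656348, plus strand) and last Neurog1 (chr13:56252131-56252430, minus strand), overlapped by peaks of 3, 2 and 1 lists. The Elavl3 window had none.
Elavl4 distal start: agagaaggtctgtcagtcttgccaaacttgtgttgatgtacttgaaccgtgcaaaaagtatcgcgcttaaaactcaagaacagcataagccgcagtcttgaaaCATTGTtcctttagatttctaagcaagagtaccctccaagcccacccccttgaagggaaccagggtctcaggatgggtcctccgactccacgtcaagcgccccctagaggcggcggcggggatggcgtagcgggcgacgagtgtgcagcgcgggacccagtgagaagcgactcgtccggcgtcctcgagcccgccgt
Elavl4 internal start: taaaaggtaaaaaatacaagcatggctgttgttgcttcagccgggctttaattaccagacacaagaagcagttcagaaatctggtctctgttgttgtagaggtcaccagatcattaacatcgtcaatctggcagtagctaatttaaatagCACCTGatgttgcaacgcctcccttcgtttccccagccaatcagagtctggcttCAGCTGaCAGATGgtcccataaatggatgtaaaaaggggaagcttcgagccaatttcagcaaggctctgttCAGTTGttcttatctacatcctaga
Tubb3: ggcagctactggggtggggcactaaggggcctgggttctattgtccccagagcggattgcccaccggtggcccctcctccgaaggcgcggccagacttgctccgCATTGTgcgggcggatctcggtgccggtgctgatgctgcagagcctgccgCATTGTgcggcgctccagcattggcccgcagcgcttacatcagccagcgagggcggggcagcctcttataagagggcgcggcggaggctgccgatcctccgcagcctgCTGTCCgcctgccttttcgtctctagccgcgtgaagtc
Foxd3: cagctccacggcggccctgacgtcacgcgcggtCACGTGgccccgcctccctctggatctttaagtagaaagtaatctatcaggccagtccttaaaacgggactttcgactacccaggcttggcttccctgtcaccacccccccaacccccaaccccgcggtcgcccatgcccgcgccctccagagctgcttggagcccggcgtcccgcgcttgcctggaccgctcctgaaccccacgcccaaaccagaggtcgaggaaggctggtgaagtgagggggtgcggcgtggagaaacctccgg
Neurog1: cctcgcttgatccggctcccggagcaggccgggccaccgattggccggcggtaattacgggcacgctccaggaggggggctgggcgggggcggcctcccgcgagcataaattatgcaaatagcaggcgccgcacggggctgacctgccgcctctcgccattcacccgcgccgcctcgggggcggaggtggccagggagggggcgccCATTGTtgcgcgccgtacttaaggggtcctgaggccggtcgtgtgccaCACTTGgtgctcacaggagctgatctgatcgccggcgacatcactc

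The SOX core was in 4 of the 8 windows of these genes and in 37.8% of 21045 windows genome-wide, the E-box in 6 of 8 and 69.0%, and the RE1 part in 1 of 8 and 22.5%. Of the 8 windows 4 belonged to Elavl4, and Sox10 and Erbb3 had none. The internal Elavl4 window shown overlapped another (chr4:110287462-110287761) with the same 4 E-boxes, so the windows were not independent. The RE1 match was near the end of the Tubb3 window, which also held 2 SOX cores. The Elavl4 distal start held 1 SOX core and no E-box, whereas the internal start held 4 E-boxes and no SOX core. GC content was 57.0% at the Elavl4 distal start and 43.7% at the internal start, against a median of 56.7% over all windows, and it was 67.3% at Tubb3, 65.7% at Foxd3, 65.3% at Elavl3 and 69.3% at Neurog1. These matches describe the letters of the windows and were tied to no factor here.

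Few of the 57 regions were called in more than 1 sample. In all, 42 regions (73.7%, against 68.8% of all 118102 regions) were called by 1 list, 6 by 2 lists, 7 by 3 lists, 1 by 4 lists and 1 by 6 lists, and none by all 9, which called 1.02% of all regions. Regions called by 3 or more lists made up 9 of the 57 (15.8%), close to the 15.9% of all regions. Any E10.5 list called 17 of the 57, any E11.5 list 26 and any E12.5 list 25 (29.8%, 45.6% and 43.9%, against 28.2%, 41.2% and 61.8% of all regions). Calls of one stage alone were found in 10 regions for E10.5, 19 for E11.5 and 18 for E12.5 (17.5%, 33.3% and 31.6%, against 10.97%, 24.0% and 42.7% of all regions). Calls in at least 2 of the 3 samples were found in 3 regions for E10.5 (5.26%, against 8.2% of all regions), in 4 for E11.5 (7.02%, against 12.2%) and in 7 for E12.5 (12.3%, against 13.3%). Each stage had 1 region that all 3 of its lists called (background 4.03% of all regions for E10.5, 4.31% for E11.5 and 3.14% for E12.5).

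**Figure D1:**
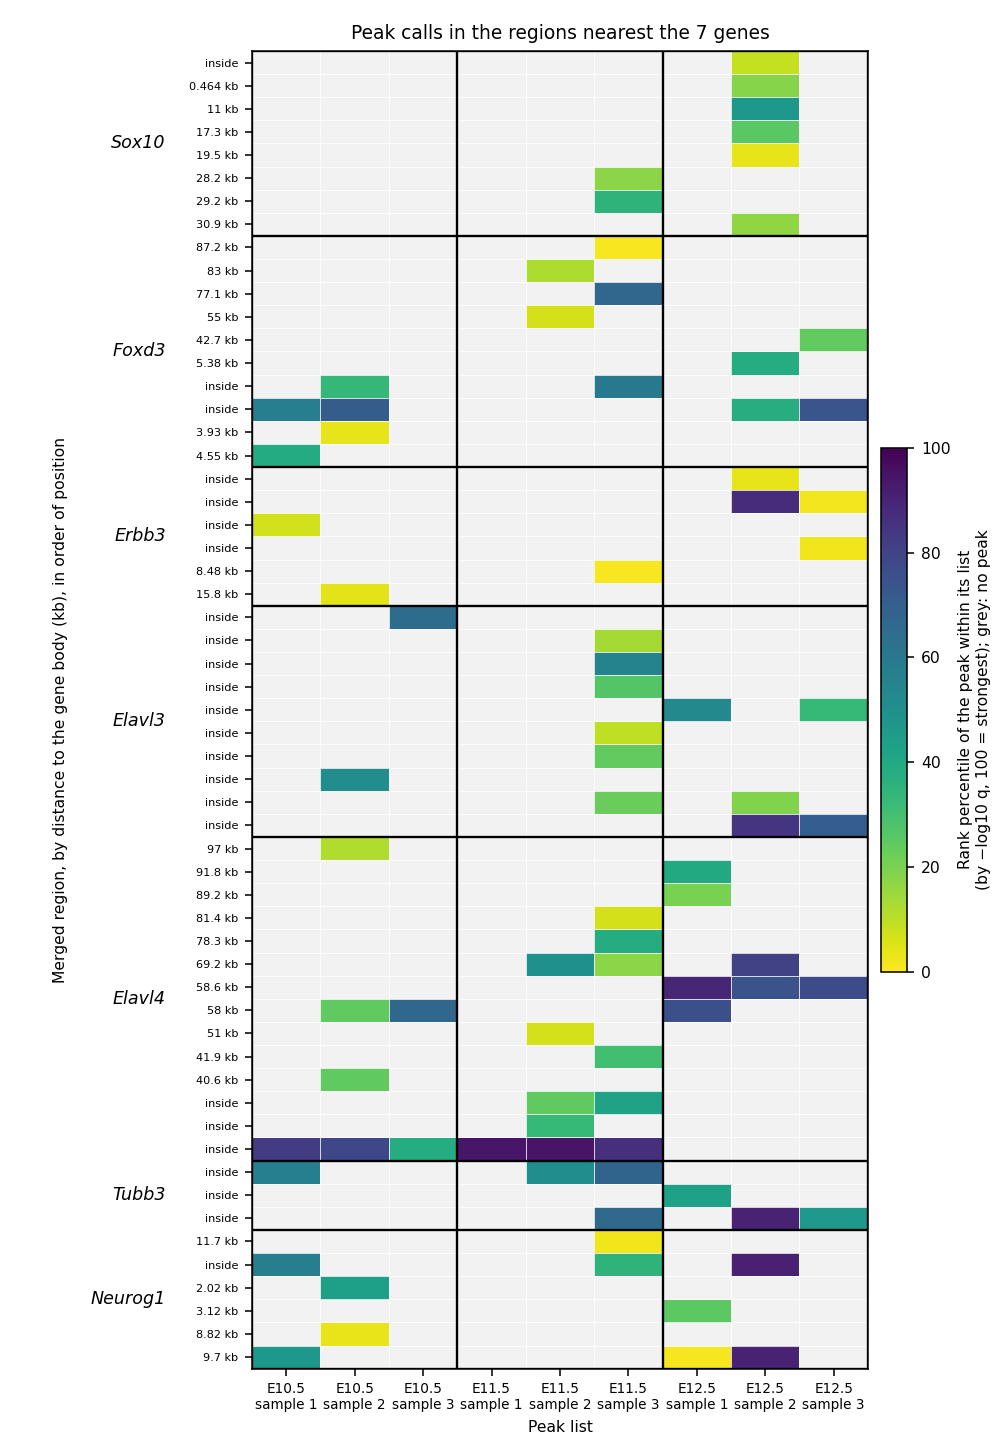
Calls in the 57 regions (rows, in order of position for each gene, labelled with their distance to the gene body in kb, where inside includes regions that overlap a gene end) in the 9 peak lists (columns). Colour gives the percentile rank of the region's strongest peak among all peaks of its list by −log10 q and grey marks no peak, so that 42 rows hold 1 coloured cell and the Elavl4 start site, with 6, is the fullest row.

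The lists differed in length, and the single calls followed the longest of them. The E10.5 lists held 16057, 19095 and 14886 peaks, the E11.5 lists 5682, 24908 and 41457, and the E12.5 lists 26584, 50361 and 19139. E11.5 sample 3 and E12.5 sample 2, the longest, gave 22 of the 42 single-list regions (52.4%, against 49.5% of all single-list regions). The regions called by 1 list had a median width of 157 bp and a median best rank at the 19.1 percentile of their list, where the strongest peak by −log10 q has percentile 100. Regions with several calls had a median width of 466 bp and a median best rank at the 80.3 percentile. Over all regions of the series the single-list ones were also narrower and lower ranked, at 157 bp and the 32.0 percentile, against 410 bp and the 77.0 percentile for the others. Of the 57 regions, 24 touched a gene body and 33 did not, and 13 lay more than 50 kb from it. Within 1 kb of an end of their gene lay 8 regions, as did 15.7% of all regions for any gene, and 7 of these 8 had calls in more than 1 list, as had 64.5% of the 18494 regions within 1 kb of any gene end.

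Sox10, the HMG-box factor that defines migrating crest and peripheral glia, had no region that was called in more than 1 sample. Its gene body (chr15:79154913-79164490) held 1 region, and 7 more lay between 0.464 and 30.9 kb beyond its higher-numbered end. E12.5 sample 2 alone called 6 of the 8 and E11.5 sample 3 alone called 2, so the 3 E10.5 lists, E11.5 samples 1 and 2 and E12.5 samples 1 and 3 called none. The ranks of these peaks ran from the 3.76 to the 46.7 percentile of their lists, and the strongest (chr15:79175480-79175774, 10990 bp from the gene body) had a fold enrichment of 2.13 in E12.5 sample 2. All 8 peaks thus stood in the lower part of the 2 longest lists. Among the 712 genes with 8 regions, 20 (2.81%) likewise had single-list regions only.

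Foxd3, a forkhead repressor of early crest and of glial precursors, had 10 regions, and its repeated calls lay at the gene itself (chr4:99656299-99658671, plus strand). The region over its start site (chr4:99655982-99656460) was called by E10.5 sample 2 with a fold of 2.36 and by E11.5 sample 3 with a fold of 3.33. The adjoining region (chr4:99656626-99657359), 165 bp further into the gene, was called by E10.5 samples 1 and 2 with folds of 3.05 and 2.67 and by E12.5 samples 2 and 3 with folds of 2.44 and 3.10. No E11.5 list called this second region. The 4 peaks did not share 1 centre, since those of E12.5 samples 2 and 3 overlapped by 19 bp and those of E10.5 samples 1 and 2 by 301 bp. The other 8 regions were called by 1 list each and lay between 3.93 and 87.2 kb from the gene, the best ranked (77.1 kb upstream, E11.5 sample 3) at the 66.8 percentile.

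Erbb3, the neuregulin receptor of Schwann cell precursors, had 6 regions, of which 1 inside the gene body (chr10:128577128-128577517) was called by 2 lists. E12.5 sample 2 called it with a fold of 2.86 at the 87.3 percentile of its list, and E12.5 sample 3 called it with a fold of 2.36 at the 1.6 percentile, over peaks that shared 70 bp. It was a strong peak in 1 E12.5 sample, one of the weakest of its list in another, and absent from the list of E12.5 sample 1. The other 5 regions were called once each, 2 by an E10.5 list, 1 by an E11.5 list and 2 by an E12.5 list, at ranks from the 0.919 to the 7.0 percentile. A region called by all 9 lists (chr10:128565415-128566693) lay 830 bp from the lower-numbered end of Erbb3, but its nearest gene was Pa2g4, a proliferation-associated gene, and it is not one of the 57.

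Neurog1, the basic helix-loop-helix factor that commits cranial placode cells to sensory neurons, had 6 regions. The region at its start (chr13:56251631-56252176, ending 4 bp inside the gene) was called once at every stage, by E10.5 sample 1 with a fold of 2.78, by E11.5 sample 3 with a fold of 2.62 and by E12.5 sample 2 with a fold of 2.72. A second region 9.7 kb upstream (chr13:56261876-56262531) was called by E10.5 sample 1 and by E12.5 samples 1 and 2, with folds of 2.73, 2.69 and 2.72. In it the peaks of E10.5 sample 1 and E12.5 sample 1 did not touch and were joined through that of E12.5 sample 2. The remaining 4 regions had 1 call each, with the best, 2.02 kb upstream in E10.5 sample 2, at the 43.6 percentile. At neither repeated region did the calls separate the stages.

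Tubb3, the neuronal beta-tubulin, had 3 regions, all inside its gene body (chr8:123411553-123422015, plus strand). The start site (chr8:123411361-123411717) was called by E10.5 sample 1 with a fold of 2.61, by E11.5 samples 2 and 3 with folds of 4.43 and 2.85, and by no E12.5 list. Near the other end of the gene a region (chr8:123420496-123421031) was called by E11.5 sample 3 with a fold of 3.11 and by E12.5 samples 2 and 3 with folds of 2.66 and 2.48. The calls at the start site came from the earlier stages and those at the far end mostly from E12.5, each with 1 or more samples of the same stage missing. The remaining region was called by E12.5 sample 1 alone.

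Elavl3, which encodes the neuronal RNA-binding protein HuC, had 10 regions, all within its gene body (chr9:22015005-22052146, minus strand), and none covered the start site window. The region nearest to the start (chr9:22051201-22051399, 624 bp downstream) was called by E12.5 sample 2 with a fold of 2.47 and by E12.5 sample 3 with a fold of 2.60, at the 84.8 and 70.2 percentiles. A second one (chr9:22026278-22026590) was called by E12.5 sample 1 with a fold of 3.15 and by E12.5 sample 3 with a fold of 2.44, through peaks that shared 27 bp. Another (chr9:22050673-22050860) was called by E11.5 sample 3 and by E12.5 sample 2, at the 18.9 percentile in the E12.5 list and the 23.0 in the E11.5 list. E11.5 sample 3 was the source of 5 of the 7 single-list regions. Elavl3 thus had 25.5 regions per 100 kb of the genome nearest to it, against 5.16 for Elavl4, whose territory spanned 271 kb.

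Elavl4, which encodes the neuronal RNA-binding protein HuD, held the single region of the 57 that all 6 samples of the earlier stages called. This region (chr4:110351146-110352146) covers the distal of its 4 annotated start sites. Its folds were 4.04, 3.16 and 2.58 in the E10.5 samples and 8.68, 10.7 and 5.13 in the E11.5 samples, and no E12.5 list called it. It was also the single region of the 57 that E11.5 sample 1, the shortest list, called. Its ranks were the 82.5, 78.2 and 37.9 percentiles of the E10.5 lists and the 93.9, 94.9 and 86.1 percentiles of the E11.5 lists. The highest fold of any peak was 17.9 to 20.4 in the E11.5 lists and 5.83 to 7.47 in the E10.5 lists, so folds and ranks describe each list and are no measure of change between stages. Summits lay 74 to 117 bp downstream of the start site in E10.5 sample 1 and the 3 E11.5 samples, and 360 and 381 bp downstream in E10.5 samples 2 and 3, whose peaks did not reach the start site.

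The absence from E12.5 is set against how often other regions did the same. Of 2661 regions that the 6 earlier lists all called, 183 (6.88%) had no call at E12.5, or 0.155% of all regions. Of the 2307 of them within 1 kb of a gene end, 153 (6.63%) had none. The E12.5 lists called 2082, 4537 and 3388 of the 21045 promoter windows, against 5097, 5827 and 4211 in the E10.5 lists and 4034, 9737 and 9205 in the E11.5 lists. The part of this in the Elavl4 calls was not tested. The 3 internal start sites of Elavl4 were called by no list, as 46.0% of all windows were.

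Elavl4 also held the one region that all 3 E12.5 lists and no earlier list called, 58.6 kb beyond the 3′ end of the gene (chr4:110144524-110145163). Its folds were 4.60, 2.81 and 3.38 in E12.5 samples 1, 2 and 3, at the 89.3, 74.3 and 76.6 percentiles. The peaks of samples 2 and 3 shared 540 bp, whereas that of sample 1 shared 87 bp with sample 2 and 36 bp with sample 3. Of 3703 regions called by all 3 E12.5 lists, 318 (8.59%) had no earlier call, or 0.269% of all regions. A second region (chr4:110145391-110145783) began 227 bp further on and was called by E10.5 samples 2 and 3 with folds of 2.53 and 2.83 and by E12.5 sample 1 with a fold of 4.16, but by no E11.5 list. When peaks up to 500 bp apart were also merged, an alternative chosen after seeing the data, the pair became 1 region with E10.5 and E12.5 calls.

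**Figure D2:**
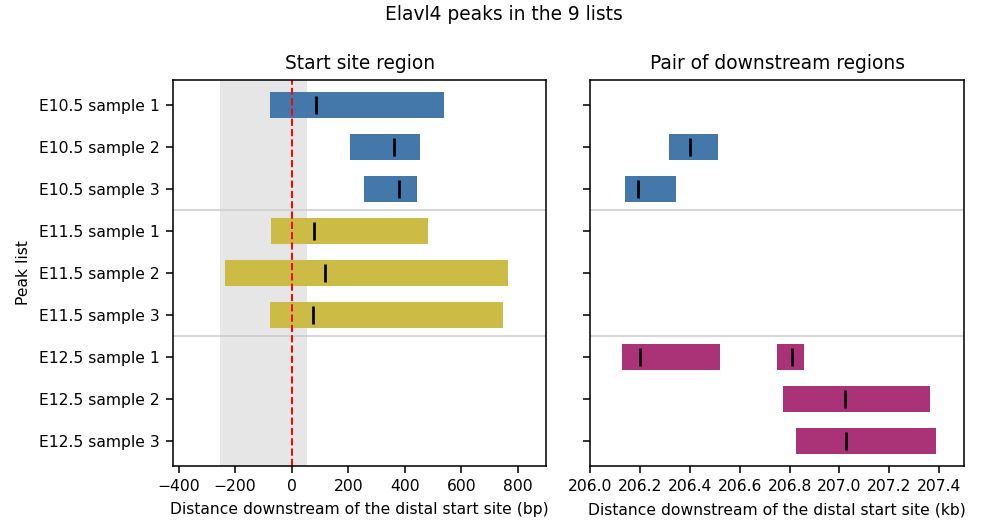
Peaks of the 9 lists at Elavl4 (rows), by distance downstream of the distal start site, in bp at the start site (left; dashed line, start site; grey band, promoter window) and in kb at the pair of downstream regions (right). Bars are peaks and ticks their summits, and the E12.5 rows are empty on the left. On the right the 3 E12.5 lists have peaks that overlap where no E10.5 or E11.5 peak reached. That of sample 1 shared 87 bp with sample 2 and 36 bp with sample 3.

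The remaining repeated Elavl4 regions were called mainly at E11.5. One 69.2 kb beyond the 3′ end (chr4:110134048-110134513) was called by E11.5 samples 2 and 3 with folds of 5.12 and 2.88 and by E12.5 sample 2 with a fold of 2.90. One inside the gene (chr4:110208315-110208493) was called by E11.5 samples 2 and 3 with folds of 4.24 and 3.20 and by no other list. The 9 single-list Elavl4 regions came from 4 lists, the best ranked at the 39.1 percentile.

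Regions whose groups did not overlap, with calls in all 3 samples of one stage and none of the other, were counted among the 57. For E11.5 against E10.5 there were 0 gained and 0 lost (background 0.643% and 0.149% of all regions). For E12.5 against E10.5 there were 1 gained and 1 lost (1.75% of the 57 each, background 0.478% and 0.307%). For E12.5 against E11.5 there were also 1 gained and 1 lost (1.75% each, background 0.561% and 1.23%). Both gains were the downstream Elavl4 region and both losses the Elavl4 start site. With 3 samples a group an exact permutation test cannot go below 0.1, so these are descriptions.

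Calls per gene were then compared between stages with list length taken into account. For each gene with at least 5 regions, the calls in a list were set against the calls expected from the length of the list and from how often each region was called, and the residual, the difference divided by the root of its expected variance, entered limma with stage as the factor. Of the 7 genes 6 were tested, since Tubb3 has 3 regions, and none passed at an adjusted p of 0.05 in any comparison. Among 7487 genes, 0.214% passed with more and 0.0267% with fewer calls for E11.5 against E10.5, 0.0134% and 0.0% for E12.5 against E10.5, and 1.11% and 2.12% for E12.5 against E11.5. At an unadjusted p under 0.05 the counts were 0 of 6 for E11.5 against E10.5, 0 of 6 for E12.5 against E10.5 and 1 of 6 for E12.5 against E11.5, where 9.99%, 8.78% and 17.4% of all genes lay.

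Elavl4 was that gene. It had 4, 2 and 1 calls in the E12.5 lists where 3.88 were expected on average, against 1, 5 and 6 calls in the E11.5 lists where 2.83 were expected on average. Its residual was lower by 1.89 at E12.5 than at E11.5 (limma difference -1.89, SE 0.845, adjusted p = 0.22). E12.5 sample 3 and E11.5 sample 1 both had 1 call, where 2.29 and 0.523 were expected, so the raw counts of the stages overlapped. The residuals did not overlap, at 0.699, 1.34 and 0.716 in the E11.5 lists and 0.544, -2.41 and -1.03 in the E12.5 lists.

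The largest differences in the other comparisons were smaller. Foxd3 had 0, 2 and 2 calls at E12.5 against 2, 3 and 0 at E10.5 (difference -1.34, SE 0.851, limma adjusted p = 0.656). Neurog1 had 0, 0 and 2 calls at E11.5 against 2, 2 and 0 at E10.5 (difference -1.36, SE 0.845, limma adjusted p = 0.649). Sox10 had 0, 6 and 0 calls at E12.5 and none at E10.5, so its mean of 2.0 ± 3.46 (SD, n = 3) rested on 1 sample, and Elavl3 had 0, 0 and 6 calls at E11.5 against 0, 1 and 1 at E10.5. The median difference over the 6 genes was -0.19 for E11.5 against E10.5, -0.51 for E12.5 against E10.5 and -0.03 for E12.5 against E11.5, beside -0.17, 0.04 and 0.26 over all genes tested. The 3 comparisons share lists and are not independent of each other.

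**Figure D3:**
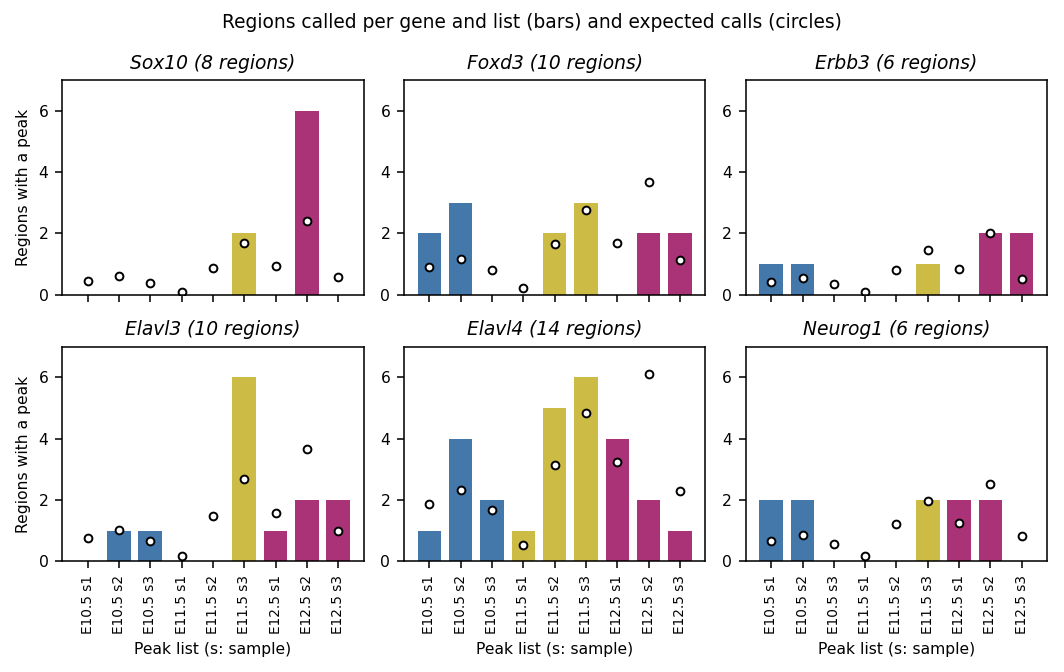
Number of regions with a peak (bars, blue E10.5, yellow E11.5, purple E12.5) and number expected from list length and region frequency (circles) for the 6 genes with at least 5 regions in the 9 lists (s, sample). For Sox10 and Elavl3 the tallest bar, 6 calls, comes from 1 list, and for Elavl4 the bars exceed the circles in all 3 E11.5 lists.

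The genes with the most similar residuals over the 9 lists, given as a description, were Ppp6c and Rims3 for Sox10 (Pearson r 0.994 each), Ntpcr and Bbx for Foxd3 (0.947 and 0.945) and Zfp831 and Aarsd1 for Erbb3 (0.974 and 0.964). For Elavl3 they were Ckap4 and Nampt (0.941 each), for Elavl4 1110059E24Rik and Rac1 (0.907 each) and for Neurog1 Tmbim6 and Sv2b (0.992 and 0.898). All points share the same 9 lists and their lengths, and each r was picked as the highest among the genes tested. The Sox10 residual was 2.76 in E12.5 sample 2 and between -1.02 and 0.277 in the other lists, so its r rested mainly on 1 list.

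Other genes of the same cell types gave a wider view. Of 18 genes of glia and Schwann cell precursors 8 had enough regions for limma, and 1 passed with fewer E12.5 than E11.5 calls, Ednrb, the endothelin receptor of crest and melanocyte precursors. It had 0, 1 and 0 calls at E12.5 against 1, 4 and 1 at E11.5 (difference -2.86, limma adjusted p = 0.0434). This call was lost when E10.5 sample 1, 2 or 3, E11.5 sample 1 or E12.5 sample 1 or 3 was left out, at adjusted p of 0.0505 to 0.121 and differences of -2.96 to -2.78. Without E11.5 sample 2 or E12.5 sample 2 Ednrb had too few regions to be tested. In the other comparisons 0 of the 8 passed.

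Of 35 neuron and cranial ganglion genes 22 entered limma, and for E12.5 against E11.5 1 had more and 1 had fewer calls. Rbfox3, which encodes the neuronal nuclear protein NeuN, had 17, 29 and 10 calls over its 61 regions at E12.5, against 0, 1 and 14 at E11.5 (difference 3.74, limma adjusted p = 0.00313). Without E11.5 sample 2 the call was lost (adjusted p = 0.161). With list odds set separately for regions within 1 kb of a gene end and for the others, the difference was 2.8 (limma adjusted p = 0.0495). Regions within 1 kb of a gene end made up 75.5%, 42.9% and 30.5% of the E11.5 lists. In the E12.5 lists they made up 16.3%, 17.2% and 30.5%. The separate list odds take these shares into account, and with them the Rbfox3 difference went from 3.74 to 2.8. Any further part of the shares in the Rbfox3 calls was not tested. Snap25, a protein of synaptic vesicle fusion, had 0, 1 and 0 calls over 6 regions at E12.5, against 1, 5 and 5 at E11.5 (difference -3.90, limma adjusted p = 0.00205). Of the marker lists of other cells, the mesenchyme gene Col1a2 also had fewer calls in this comparison, and the endothelial gene Erg and the muscle gene Pax7 had more (limma differences -3.29, 3.23 and 3.15, adjusted p = 0.0224, 0.0183 and 0.0196); their part in the results for glia and neurons was not tested. No gene of the glial and neuronal lists passed in the comparisons with E10.5, where 16 genes with more and 2 with fewer calls passed for E11.5, and 1 and 0 for E12.5, of 7487 tested (748 and 657 at an unadjusted p under 0.05).

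The ends of the gene bodies, which include the start sites, were compared with those of genes in general. Here a region counted for every gene with an end within 1 kb, even where its nearest gene was another. The counts below therefore include regions assigned to neighbouring genes. Regions near either end were pooled for each gene, so calls of different samples could come from different regions. All 3 samples of some stage had a call within 1 kb of an end for 4 of 18 glial genes (22.2%), 9 of 35 neuron genes (25.7%) and 31.0% of 21631 protein-coding genes. Among the 7 genes described here there were 2 (28.6%), Elavl4 and Erbb3, the latter through the region nearest Pa2g4. The 23 facial mesenchyme genes gave 7 (30.4%). No list had a call there for 3 glial genes (16.7%), 11 neuron genes (31.4%), 4 facial mesenchyme genes (17.4%) and 34.6% of all genes, and for 0 of the 7 genes. The glial genes without a call were Gfra3, Egr2 and Gas7, and the neuronal ones included Stmn2, Dcx, Prph, Ntrk3, Ret, Prrxl1, Elavl2, Rbfox3 and Nrg1.

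Calls in all 9 lists were found at the ends of 0 of 18 glial genes, 0 of 23 facial mesenchyme genes and 1 of 35 neuron genes, the synaptic vesicle protein gene Syt1, against 6.46% of all genes. Without the short list of E11.5 sample 1 these counts were 1, 2 and 2, against 8.66% of all genes, an alternative chosen after seeing the data. Of the 7 genes, 1 had calls in all 9 lists at its ends, Erbb3, through the region nearest Pa2g4. The median number of lists with a call at a gene's ends was 2.5 for the glial, 2.0 for the neuronal, 4.0 for the facial mesenchyme and 2.0 for all genes. It was 5.0 for the 7 genes. Of the marker lists of other cells, all 3 samples of a stage called the ends of 6 of 13 migratory crest genes, 3 of 8 melanocyte genes, 2 of 10 muscle genes, 1 of 10 endothelial genes, 1 of 10 blood genes and 0 of 13 epithelial genes.

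**Figure D4:**
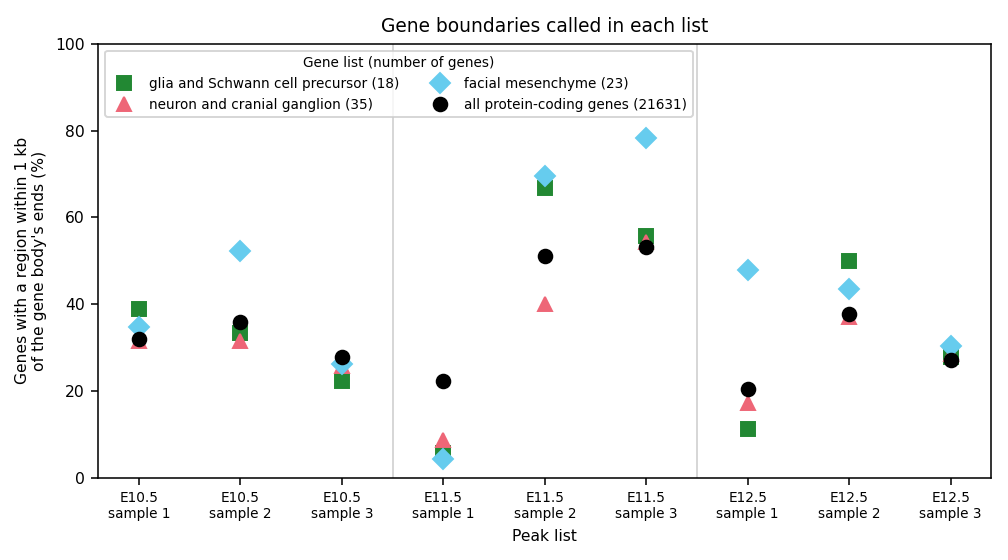
Percentage of genes with a region within 1 kb of an end of the gene body (y axis) in each of the 9 lists (x axis) for 18 glial, 35 neuronal, 23 facial mesenchyme and all 21631 protein-coding genes. E11.5 sample 1 gives the lowest share for the 3 marker lists, between 4.35% and 8.57%, and the share of all genes moves between 20.4% and 53.1% with the list.

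For nerve and glial cells in the tissue these lists held no Sox10 region shared by 2 samples, and none of the regions assigned to Foxd3, Erbb3, Elavl3, Tubb3 or Neurog1 as nearest gene was shared by the 3 samples of a stage, the region between Pa2g4 and Erbb3 being assigned to Pa2g4. The 1 start site region that all 6 earlier lists called, at Elavl4, was in no E12.5 list. A region missing from a list is one that did not pass the peak threshold there, and depth per sample is not known from peak lists, so these absences do not show that the chromatin was closed or that the cells were lacking.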

How the data were processed

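Open chromatin was measured by ATAC-seq in 9 samples, 3 for each of E10.5, E11.5 and E12.5, and each peak list belongs to 1 sample. Per the submitters' processing notes, Bowtie2, MACS2 and deepTools 3.3.1 were used with mm10, and per the labels blacklisted regions had been removed. The sources used here give no read filters, transposase shift or peak threshold. The deposited lists give each peak a fold enrichment, a ratio computed by the authors' peak caller, and the authors' −log10 p and −log10 q. They hold no counts, so depth is unknown. Peaks were ranked within a list by −log10 q.

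Gene bodies came from a RefSeq table of GRCm38.p6 (mm10), in which all 144 listed genes matched. It holds no exons, so exonic and intronic positions were not separated. Promoter windows were found for 5 of the 7 genes. Peaks were merged at 1 bp of overlap, and 107078 regions (90.7%) had a gene within 100 kb. Expected calls came from a conditional model of list and region margins over regions called by 1 to 8 lists. Residuals of genes with at least 5 such regions were tested with limma 3.58.1 in R 4.3.3, fitted to all 9 lists with stage as a factor, and p-values were adjusted by Benjamini-Hochberg at 0.05. Other steps used Python 3.11.15, NumPy 2.4.6, pandas 2.3.3 and Matplotlib 3.10.9. On data simulated for E12.5 against E10.5 over 7487 genes, the test recovered 10 of 100 genes with 8-fold and 21 of 100 with 32-fold odds of a call. It called 1 of the 7287 unchanged genes there, and 0 genes when nothing was changed. The simulated calls were drawn from the fitted model itself, so they cannot show how often the test errs where the real lists depart from that model.

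The genes and marker lists (glia, migratory crest, neuron, melanocyte, facial mesenchyme, epithelium, endothelium, blood and muscle) were chosen with earlier results of these data known. Named were the 7 genes, list genes that passed limma, glial and neuronal genes with a gene end called by all lists or none, and the 2 genes with the most similar residuals; some genes that this rule names are not reported here.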

Additional observations from a re-analysis of the deposited data

How the results depend on the processing

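None of the 7 genes passed limma where it could be tested, but 13 of 22 alternatives tested all 6 genes of the main result. At a −log10 q of at least 5 and in equal-length lists 0 had enough regions. With regions called by 2 to 8 lists 1 had, and likewise with −log10 q held to 3 or more, with or without merging across gaps. For E12.5 against E11.5 the lowest adjusted p ran from 0.0958 to 0.649. Over the alternatives, whole-table calls ranged from 0 to 53 more and 0 to 6 fewer for E11.5 against E10.5, from 0 to 42 and 0 to 4 for E12.5 against E10.5, and from 9 to 210 and 1 to 311 for E12.5 against E11.5. Sample numbers are not stated to pair the stages. Correlations of residuals between samples of different stages were -0.0991 to 0.0163 for the same number and -0.127 to 0.13 for other numbers. Of the 9 lists 1 correlated best with its own number. Whether samples of the same number shared a preparation cannot be told from these values. With the sample number as a replicate block the calls were 19 and 3, 1 and 0, and 87 and 163, with 0 of the 6 genes among them.

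The counts of the 57 regions depended on peak strength. At a −log10 q of at least 3, 20 regions were left, 2 of them repeated at E12.5 (called by at least 2 of 3 lists), and 0 were lost at E12.5 against E10.5. At a −log10 q of at least 5, 8 were left, with 0 repeated at E12.5 and 1 at each earlier stage, and 0 gained against either earlier stage and 0 lost against E10.5. With every list cut to its strongest 5682 peaks, 8 were left, with 1 repeated at each stage and 0 gained or lost. Asking for all 3 lists gave 1 at each stage. With at least 200 bp of overlap, 1 was repeated at E12.5, and 0 were gained against either earlier stage, as also within 20 kb. Merging across gaps of up to 500 bp gave 0 gained against E10.5, and with −log10 q of at least 3 it gave 18 regions, 2 repeated at E12.5, and 0 gained and 0 lost against E10.5. The number lost at E12.5 against E11.5 was 1 under all of these but the equal-length lists.

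Leaving out 1 sample at a time gave 43 to 57 regions, of which 1 to 3 were repeated for E10.5, 1 to 4 for E11.5 and 2 to 7 for E12.5. With a sample left out, a repeated region had to be in both remaining lists of that stage, a stricter rule than 2 of 3. A gain or loss then asked for 2 lists of that stage in place of 3, a looser rule. Under these changed rules the low values came without E10.5 sample 2, without E11.5 sample 2 or 3, and without E12.5 sample 2 or 3. Gains and losses were 0 to 2 and 0 to 1 for E11.5 against E10.5 (2 without E11.5 sample 1, 1 without E10.5 sample 1 or 3), 1 to 4 and 1 for E12.5 against E10.5, and 1 to 4 and 1 to 3 for E12.5 against E11.5 (4 gained against either stage without E12.5 sample 1, 2 without E12.5 sample 2, 2 against E11.5 without E12.5 sample 3, and 3 lost without E11.5 sample 1). Of the named genes, Ednrb also lost its call with list odds set by boundary class (adjusted p = 0.0892), Rbfox3 with genes assigned by the nearest boundary (0.121) and Snap25 at a −log10 q of at least 5 (0.303).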
